A study of Mus musculus with 24 samples.

Results

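Glutathione peroxidases and glutathione transferases of the omega class were examined in striatal tissue from R6/1 animals, a transgenic model of Huntington's disease (HD), with and without the histone deacetylase inhibitor RGFP109. The 8 genes, taken by symbol from the 24340 genes shared by the 6 deposited tables, were Gpx1, Gpx3, Gpx4, Gpx6, Gpx7, Gpx8, Gsto1 and Gsto2. They were selected on their group levels in these tables, chosen by the large genotype difference of Gpx6 between the R6/1 and wild type FPKM values, so the genotype values below describe the genes and are not tests of them. RNA-seq libraries from the striatum of 24 male mice formed 4 groups, namely 5 WT-vehicle, 6 R6/1-vehicle, 6 WT-RGFP109 and 7 R6/1-RGFP109 animals. All R6/1 mice were hemizygous for a transgene with exon 1 of human HTT carrying an expanded CAG repeat, driven by the human promoter, and the wild type mice were their littermates on the C57BL/6J background. RGFP109, which inhibits HDAC1 and HDAC3, was injected intraperitoneally at 30 mg/kg on 5 days a week for 3 weeks, starting at 11 to 14 weeks of age, and the vehicle animals received the DMSO-containing solvent on the same schedule. All mice were killed at 14 to 17 weeks of age, 18 h after the last injection.

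Glutathione peroxidases typically use glutathione to reduce hydrogen peroxide and lipid hydroperoxides. Some carry selenocysteine in the active site, which is encoded by an in-frame TGA codon, whereas others carry cysteine. Omega class transferases also have a cysteine in the active site and act as thiol transferases and dehydroascorbate reductases, which links glutathione to the recycling of vitamin C. The striatum consists mostly of medium spiny projection neurons, the cells most affected in HD.

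The 6 peroxidases fell into the selenocysteine and the cysteine kind, and the codons of the active site are shown because this is the difference in sequence that separates Gpx6 from the more abundant Gpx1, Gpx3 and Gpx4 in the mouse. Each line gives 5 codons on either side of the active-site codon, in transcript direction, from the GENCODE transcripts of GRCm38, with the active-site codon in capitals.
Gpx1: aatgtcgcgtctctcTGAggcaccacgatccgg
Gpx3: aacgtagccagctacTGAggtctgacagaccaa
Gpx4: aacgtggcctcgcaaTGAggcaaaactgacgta
Gpx6: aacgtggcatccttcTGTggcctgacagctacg
Gpx7: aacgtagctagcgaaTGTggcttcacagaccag
Gpx8: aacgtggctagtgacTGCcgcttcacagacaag

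Gpx1, Gpx3 and Gpx4 had TGA, Gpx6 and Gpx7 had TGT, and Gpx8 had TGC. The codon of Gpx6 is codon 73 of the transcript and lies at chr13:21313777-21313779 on the plus strand. Over the 33 bases, the window of Gpx6 matched that of Gpx3 at 21 positions, those of Gpx7 and Gpx8 at 20 each, and those of Gpx1 and Gpx4 at 18 each.

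Promoter windows are shown for Gpx6 and for the adjacent pair of Gsto1 and Gsto2, since these carry the largest difference and the pair of genes with ratios of opposite sign. The windows run from 250 bases before to 50 bases after the RefSeq start site on GRCm38.p6, in the direction of transcription on the plus strand, with CpG dinucleotides in capitals. They cover chr13:21311953-21312252 for Gpx6, chr19:47854723-47855022 for Gsto1 and chr19:47865295-47865594 for the first of the listed windows of Gsto2.
Gpx6: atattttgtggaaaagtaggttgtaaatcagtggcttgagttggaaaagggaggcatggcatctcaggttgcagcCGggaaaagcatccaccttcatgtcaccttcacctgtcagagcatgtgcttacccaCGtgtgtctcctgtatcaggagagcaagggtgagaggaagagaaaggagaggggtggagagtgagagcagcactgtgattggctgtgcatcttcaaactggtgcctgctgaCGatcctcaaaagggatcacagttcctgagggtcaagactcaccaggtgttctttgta
Gsto1: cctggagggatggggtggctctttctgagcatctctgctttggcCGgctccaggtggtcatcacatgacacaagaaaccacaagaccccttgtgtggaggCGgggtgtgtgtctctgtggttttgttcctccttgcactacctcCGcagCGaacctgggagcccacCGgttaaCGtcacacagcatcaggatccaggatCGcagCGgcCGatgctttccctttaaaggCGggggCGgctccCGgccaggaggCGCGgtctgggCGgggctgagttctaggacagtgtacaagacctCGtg
Gsto2: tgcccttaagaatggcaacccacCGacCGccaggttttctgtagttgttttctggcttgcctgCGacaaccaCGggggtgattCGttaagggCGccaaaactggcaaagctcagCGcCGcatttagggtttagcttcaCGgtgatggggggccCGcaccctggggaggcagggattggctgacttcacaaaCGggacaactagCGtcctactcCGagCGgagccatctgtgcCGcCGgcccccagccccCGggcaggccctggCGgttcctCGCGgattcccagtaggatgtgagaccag

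The window of Gpx6 held 3 CpG dinucleotides at a GC content of 50%, while those of Gsto1 and Gsto2 held 16 and 20. The median of all 32851 RefSeq windows of this length was 7, and 31.4% of them held 3 or fewer. The antioxidant response element (letters TGACNNNGC, both strands), to which the oxidative stress regulator Nfe2l2 binds, was in 12.4% of all windows and in none of the 12 windows listed for the 8 genes. The cAMP response element (TGACGTCA) was in 1.79% and the TATA box letters (TATAAA) in 13.6% of all windows, and neither was in a window of the 8 genes. These counts say only that the letters are not in these windows.

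The deposited tables hold levels as FPKM, read fragments normalised to transcript length and to the mapped reads of the library, with 1 value per group and not 1 per mouse. Each group stands in 3 of the 6 tables, and its values differ between them by a common factor, so that the highest of the 3 is a median of 3.17 to 3.92% above the lowest. Therefore no value below has an error over mice, no test was run on the group values, and the differences were not set against the spread between mice. Ratios were formed within 1 table as log2 of R6/1 over WT or RGFP109 over vehicle, after adding 0.05 FPKM, whereas folds and percentages are ratios of the FPKM values without this addition and are larger for low genes. A gene was counted as past the fold when this log2 ratio lay beyond 0.5 in either direction, a ratio of 1.41, among the 13715 genes with a mean of at least 1 FPKM over the 4 groups.

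Of the 8 genes, 7 had a mean of at least 1 FPKM, and Gsto2 lay below it. By the mean over the groups, the order was Gpx1 with 111.3 FPKM, Gpx4 with 72.9, Gsto1 with 30.3, Gpx3 with 8.99, Gpx8 with 5.84, Gpx7 with 3.55, Gpx6 with 2.53 and Gsto2 with 0.788. Gpx1 stood at the 97.3rd percentile of all genes, and Gsto2 at the 41.9th. Both other peroxidase genes of the mouse were nearly silent, with Gpx2 at 0.0862 FPKM or less and Gpx5 listed at 0 in every group.

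**Figure D1:**
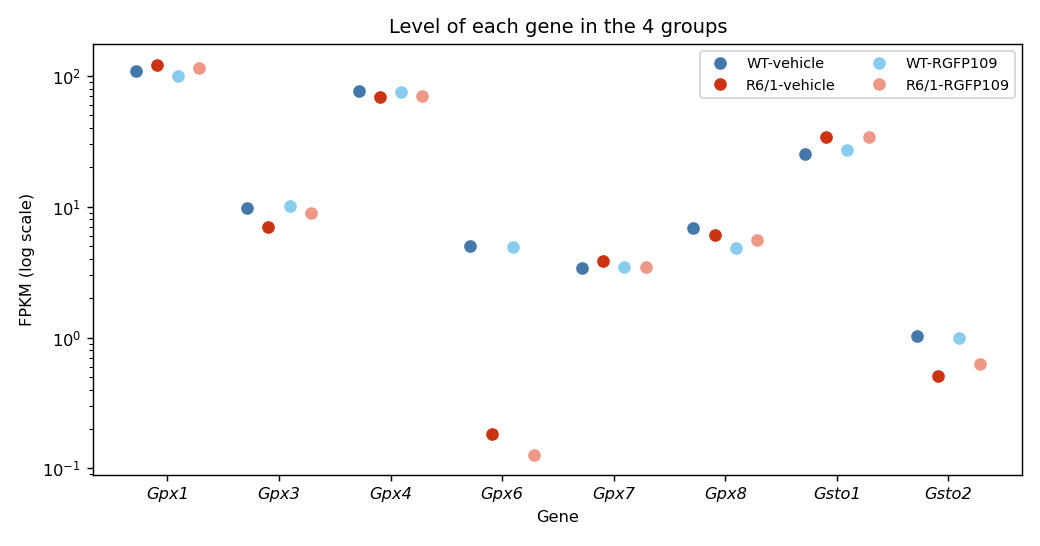
FPKM (log axis) of the 8 genes in the 4 groups, where each point is the middle of the values of a group in its 3 tables and the bar, shorter than the point, spans them; there is no error over mice. Gpx6 lies near 5 FPKM in both wild type groups and under 0.19 in both R6/1 groups, and none of the other 7 genes separates the genotypes to this degree.

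As means over the 3 tables of each group, the 6 peroxidases summed to 209.5 FPKM in both vehicle groups, to 197 in WT-RGFP109 and to 204 in R6/1-RGFP109. The values of a group differ by 3.17 to 3.92% between its tables, so smaller differences between these sums are not resolved. Gpx1 and Gpx4 made up 88.1% of this sum in WT-vehicle and 91.7% in R6/1-vehicle. The share of Gpx6 was 2.37% in WT-vehicle and 2.47% in WT-RGFP109, but 0.088% and 0.0622% in the R6/1 groups with vehicle and RGFP109. The summed level of the family was thus close between the genotypes with vehicle, while the small share of Gpx6 was not. This sum joins members that differed in opposite directions. Gpx1 had 108.5 FPKM in WT-vehicle and 121.9 in R6/1-vehicle, and Gpx7 was also higher in R6/1-vehicle, whereas Gpx3, Gpx4, Gpx6 and Gpx8 were lower.

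Genotype differences were compared first with vehicle. Of the 7 genes counted, 1 was past the fold, Gpx6, which was lower in R6/1, and none was higher. Among all counted genes 14.1% were past the fold, 10.1% lower and 3.95% higher. The median log2 ratio of all 8 genes was -0.16, beside -0.0039 over all genes. Under RGFP109, Gpx6 was again the 1 gene of 7 past the fold, where 12.2% of all genes were past the fold and 8.68% were past it and lower, and a median of -0.06 over the 8 genes. Gpx6 passes the minimum level only through the wild type groups, in which it is high, so these counts are descriptions.

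Gpx6, whose human counterpart is a selenoprotein and whose expression is best known from the olfactory epithelium, had 4.84 to 5.03 FPKM in WT-vehicle over the 3 tables. In R6/1-vehicle its values were 0.182 to 0.189 FPKM. In WT-RGFP109 they were 4.73 to 4.92 FPKM and in R6/1-RGFP109 0.126 to 0.13 FPKM. Both wild type groups were thus high and close to each other, and both R6/1 groups were low. With vehicle, the FPKM value in R6/1 was 27.5-fold lower. After adding 0.05 FPKM it was 21.8-fold lower, a log2 ratio of -4.45, the lowest of the 12138 protein-coding genes counted. Over all 13715 counted genes, it ranked 67th from the lowest. Under RGFP109, it was 39-fold lower without the addition and 28.2-fold lower with it, a log2 ratio of -4.82. This ranked 3rd from the lowest of the protein-coding genes, after S100a5 and Omp, genes of olfactory sensory neurons and their projections. Over all counted genes, it ranked 83rd. Omp was high in WT-RGFP109 only, at 5.49 FPKM beside 0.161 in WT-vehicle, and its genotype log2 ratio with vehicle was -0.27. After adding 1 FPKM in place of 0.05, both log2 ratios of Gpx6 shrank, to -2.35 and -2.39. Its ranks among protein-coding genes became 3rd and 5th. The low levels in R6/1 set the exact size of these ratios. RGFP109 left Gpx6 in wild type mice at a log2 ratio of -0.03, and in R6/1 mice the value was -0.41, with 0.189 FPKM in R6/1-vehicle and 0.13 in R6/1-RGFP109. Thus the treated R6/1 group did not lie nearer to wild type for this gene, as its log2 ratio to WT-vehicle was -4.85 and it was the 1 gene of 7 past the fold there, where 13.9% of all genes were.

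**Figure D2:**
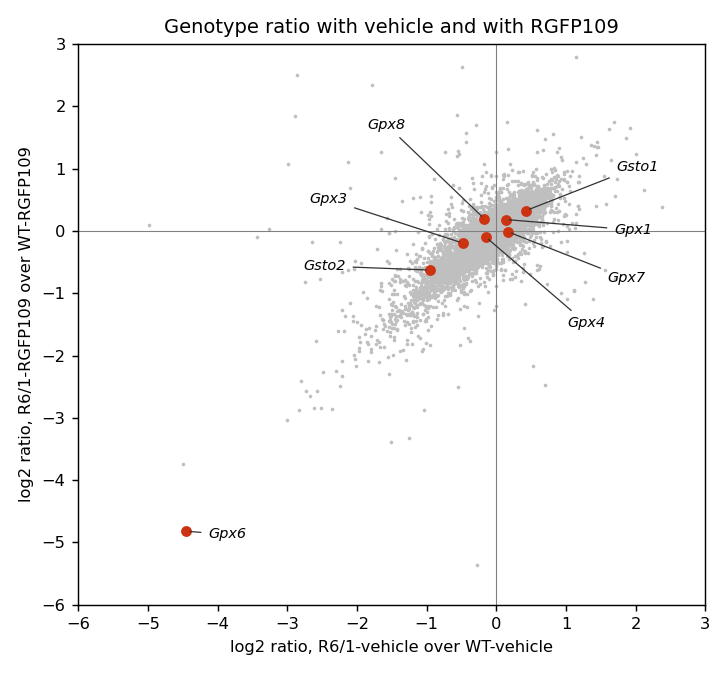
Log2 ratio of FPKM between R6/1 and wild type with vehicle (horizontal) and with RGFP109 (vertical), which share no mice, for the counted genes in grey and the 8 genes in red; 279 genes beyond the axes are not drawn. Gpx6 sits at -4.45 and -4.82, far from the other 7, of which Gsto2 is the next lowest on both axes.

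Markers of striatal projection neurons were also lower in R6/1 and are given beside Gpx6. Their 12 genes summed to 3412 FPKM in WT-vehicle and 1382 in R6/1-vehicle, with 3293 in WT-RGFP109 against 1244 in R6/1-RGFP109, and 8 of 12 were past the fold and lower with vehicle and 9 of 12 under RGFP109. Penk, which encodes the enkephalin precursor, was the lowest of the list, with log2 ratios of -2.01 and -2.17, and Gpx6 lay 2.43 and 2.65 below it on the log2 scale. Ppp1r1b, which encodes DARPP-32, was at -1.36 and -1.39. Drd1 and Drd2, the dopamine receptors of both output pathways, were at -0.99 and -1.25 with vehicle, and the adenosine receptor gene Adora2a was at -1.97. The highest ratios of the list were -0.11 with vehicle and -0.38 under RGFP109. Other lists were also lower in R6/1 with vehicle. Past the fold were 6 of 8 neocortical, 6 of 7 choroid plexus and 4 of 6 oligodendrocyte markers, but no microglia marker. No marker of the striatal list was at 0 in every group. In bulk striatum, fewer cells of a type and less RNA per cell cannot be told apart, and the part of this list in the difference of Gpx6 was not tested. Markers of the olfactory bulb, 3 of 5 of which were counted, summed to 7.17 FPKM in WT-vehicle and 4.3 in R6/1-vehicle, with 19 in WT-RGFP109 against 4.98 in R6/1-RGFP109. The part of this list in the values of Gpx6 was not tested.

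The 5 genes whose 6 log2 ratios lay closest to those of Gpx6, among 13714 candidates, were Abhd11os, Scn4b, Ptpn7, Ptprv and Slc4a11. Abhd11os, a long noncoding RNA, was at a root mean square difference of 0.66 on the log2 scale, with 36.6 FPKM in WT-vehicle and 1.6 in R6/1-vehicle and ratios of -4.50 and -3.73. Scn4b, the beta-4 subunit of voltage-gated sodium channels, followed at 1.33 and had ratios of -3.00 and -3.03. The other 3 lay between 1.46 and 1.61. Hence Abhd11os was the nearest by a wide margin, but unlike Gpx6 it was higher in treated than in untreated R6/1 mice, with a log2 ratio of 0.40. These distances are over 6 ratios formed from the same 4 groups and are given as a description.

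**Figure D3:**
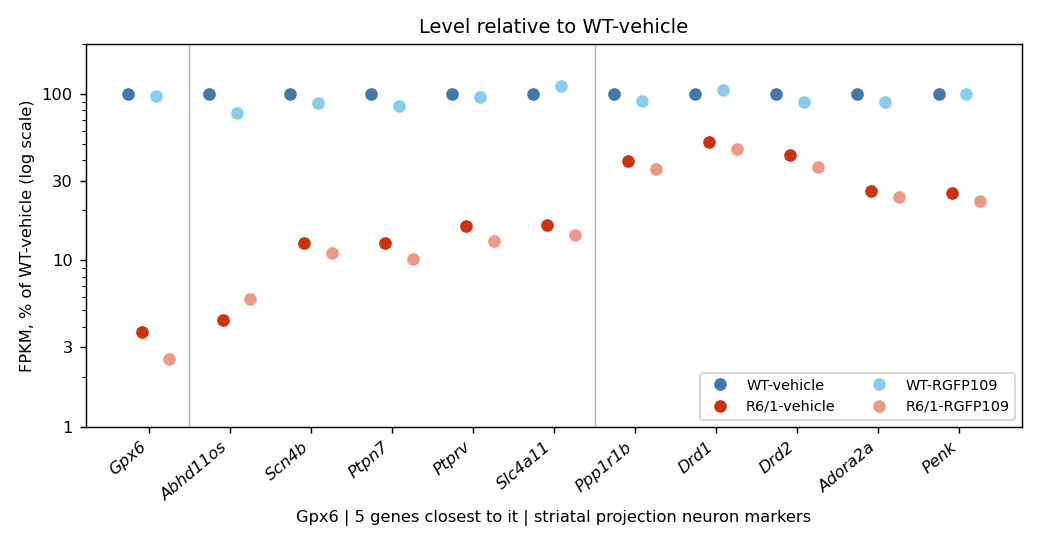
Group mean FPKM as a percentage of WT-vehicle (log axis) for Gpx6, the 5 genes closest to it and 5 markers of striatal projection neurons, 1 point per group. In both R6/1 groups Gpx6 is lower, relative to WT-vehicle, than every other gene drawn, and both wild type points lie above both R6/1 points for each of them.

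Gpx6 lies at chr13:21312125-21319624 (GRCm38, plus strand) and its transcript has 5 exons. Its nearest neighbours in the tables, Gpx5 and the olfactory receptor gene Olfr1367, were listed at 0 in every group. Trim27, an E3 ubiquitin ligase gene and the next gene on the left with a level, had genotype log2 ratios of 0.12 with vehicle and 0.25 under RGFP109. Zscan12, a zinc finger gene and the next on the right, had 0.21 and 0.33. The genes around Gpx6 were thus silent or slightly higher in R6/1.

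Among the selenocysteine enzymes, Gpx1, the abundant cytosolic peroxidase, had 106 to 110 FPKM in WT-vehicle and 120 to 125 in R6/1-vehicle. It had 96.9 to 101 FPKM in WT-RGFP109 and 114 to 118 in R6/1-RGFP109. The R6/1 groups were higher under either injection, with log2 ratios of 0.13 and 0.18. Both treatment ratios were slightly below 0, at -0.08 in R6/1 and -0.13 in wild type mice. Gpx4, which reduces lipid hydroperoxides in membranes and thereby counteracts ferroptosis, had 74.3 to 77.2 FPKM in WT-vehicle and 69.4 to 71.9 in R6/1-vehicle. It had 72.3 to 75.2 FPKM in WT-RGFP109 and 70 to 72.3 in R6/1-RGFP109. Its genotype log2 ratios were -0.15 and -0.10, and its treatment ratios 0.01 in R6/1 and -0.04 in wild type mice. Gpx4 thus had the most even level of the 8 genes among the groups.

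Gpx3, the secreted plasma peroxidase, had 9.5 to 9.85 FPKM in WT-vehicle and 7.03 to 7.29 in R6/1-vehicle. In WT-RGFP109 it had 9.85 to 10.2 FPKM and in R6/1-RGFP109 8.92 to 9.24. R6/1-vehicle was the low group, and the treated R6/1 group lay between it and the wild type groups. The genotype log2 ratio was -0.48 with vehicle, just short of the fold, and -0.19 under RGFP109. The treatment log2 ratio in R6/1 was 0.34, a level 1.27 times that of R6/1-vehicle, whereas in wild type mice it was 0.05. Against WT-RGFP109, R6/1-vehicle was past the fold at -0.53, in a comparison where 12.4% of all genes were. Marker lists also differed between the same groups as Gpx3. Markers of neocortical projection neurons summed to 356 FPKM in WT-vehicle and 204 in R6/1-vehicle, with 332 in WT-RGFP109 against 258 in R6/1-RGFP109, with 6 of 8 lower in R6/1 with vehicle and 3 of 8 higher with treatment in R6/1. Markers of oligodendrocytes summed to 4625, 2649, 3602 and 2985 FPKM in the same order of groups, with 4 of 6 lower in R6/1 with vehicle and none past the fold with treatment in R6/1. No marker of either list was at 0 in every group, and their part in the values of Gpx3 was not tested. Astrocyte markers summed to 672, 480, 678 and 480 FPKM, with 2 of 7 lower in R6/1 with either injection and none past the fold with treatment in R6/1, and their part was not tested either.

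Gpx7 and Gpx8 are cysteine enzymes of the endoplasmic reticulum, where they act in oxidative protein folding. Gpx7 had 3.3 to 3.43 FPKM in WT-vehicle and 3.86 to 3.99 in R6/1-vehicle, with 3.34 to 3.48 in WT-RGFP109 against 3.43 to 3.54 in R6/1-RGFP109. Only R6/1-vehicle was above the other groups, with log2 ratios of 0.17 to WT-vehicle and of -0.17 from R6/1-vehicle to R6/1-RGFP109. The log2 ratio of treated R6/1 to WT-vehicle mice was 0.0023. With group means over the 3 tables it was 0.04, so a difference this small is not resolved.

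Gpx8 had 6.61 to 6.86 FPKM in WT-vehicle and 6.07 to 6.29 in R6/1-vehicle. It had 4.69 to 4.87 FPKM in WT-RGFP109 and 5.58 to 5.75 in R6/1-RGFP109. WT-RGFP109 was the low group here, unlike for any other of the 8 genes but Gpx1. The treatment log2 ratio was -0.49 in wild type mice, just short of the fold, and -0.13 in R6/1 mice, and the genotype ratio was -0.17 with vehicle but 0.19 under RGFP109. Markers of meninges and fibroblasts, 3 of 6 of which were counted, summed to 29.8 FPKM in WT-vehicle and 25.5 in R6/1-vehicle, with 16.2 in WT-RGFP109 against 16 in R6/1-RGFP109, and 2 of the 3 were lower with treatment in wild type mice. Choroid plexus markers summed to 49.9, 28.7, 18.1 and 10.6 FPKM, with 7 of 7 counted lower with treatment in either genotype. None of these markers was at 0 in every group, and their part in the values of Gpx8 was not tested. Gpx8 lies on the minus strand at chr13:113042753-113046410 within Cdc20b, a gene of the other strand with a mean of 0.0437 FPKM. The sources used here do not say whether reads were assigned by strand.

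RGFP109 was then compared with vehicle within each genotype over all 8 genes. None of the 7 counted genes was past the fold in R6/1 mice, where 3.03% of all genes and 0.923% of the protein-coding genes were. This count depends on the added 0.05 FPKM. Without it, Gpx6 was 1.45-fold lower with treatment and 1 of 7 was past the fold, beside 2.17% of all genes. Both values of Gpx6 there, 0.189 and 0.13 FPKM, are far under the minimum, which it passes only through the wild type groups. None of the 7 counted genes was past the fold in wild type mice either, where 3.81% of all genes and 1.49% of the protein-coding genes were. The ratios ran from -0.41 for Gpx6 to 0.34 for Gpx3 in R6/1 mice, and from -0.49 for Gpx8 to 0.11 for Gsto1 in wild type mice. The medians of the 8 genes were -0.04 in both, and those of all genes were 0.0028 and -0.0018.

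**Figure D4:**
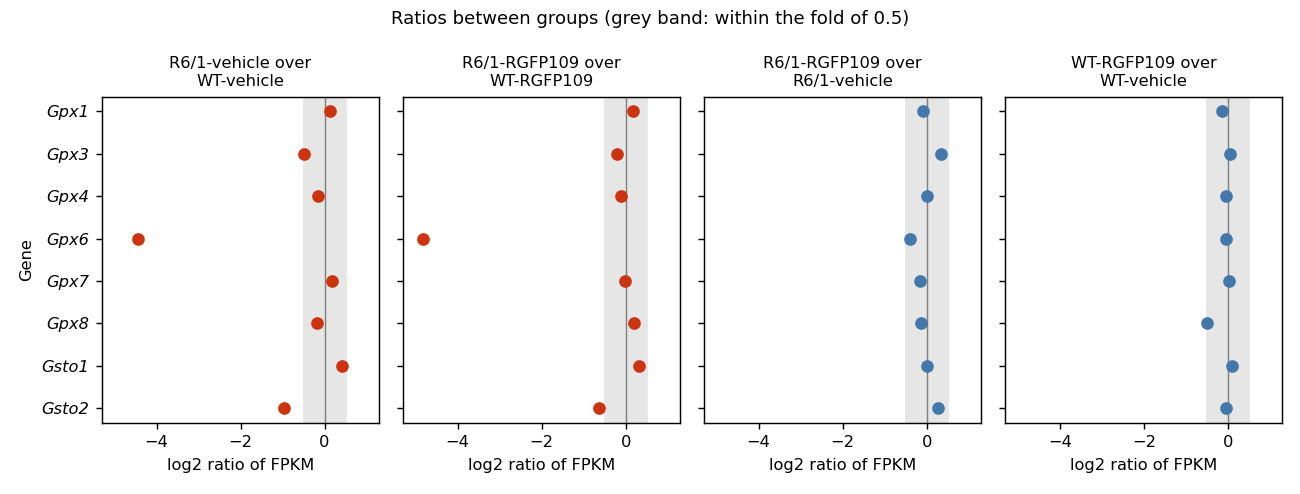
Log2 ratio of FPKM for the 8 genes in the genotype comparisons (red) and treatment comparisons (blue), with the range within 0.5 in grey; each point is 1 ratio of group values, without error bars. Gpx6 and Gsto2 lie left of the band in both genotype panels, and all 8 genes lie within it in both treatment panels, although Gpx6 leaves it in R6/1 without the added 0.05 FPKM.

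The omega class genes lie next to each other on chromosome 19, both on the plus strand, with Gsto1 at chr19:47854970-47864790, Gsto2 at chr19:47865534-47886324 and 743 bp between them. Their genotype ratios had opposite signs. Gsto1, the abundant thiol transferase, had 24.4 to 25.3 FPKM in WT-vehicle and 34 to 35.2 in R6/1-vehicle, with 26.3 to 27.4 in WT-RGFP109 against 34.3 to 35.4 in R6/1-RGFP109. Both R6/1 groups were above both wild type groups, by 34.5% with vehicle and by 25.4% under RGFP109, with log2 ratios of 0.43 and 0.33 that did not reach the fold. The treatment log2 ratio was 0.01 in R6/1 and 0.11 in wild type mice.

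Gsto2, which has high dehydroascorbate reductase activity, had 0.996 to 1.03 FPKM in WT-vehicle and 0.508 to 0.526 in R6/1-vehicle. It had 0.961 to 0.999 FPKM in WT-RGFP109 and 0.628 to 0.648 in R6/1-RGFP109. Both R6/1 groups were low, and the treated R6/1 group was 23.3% above the untreated one. Without the addition of 0.05 FPKM, R6/1 was 2.03-fold lower with vehicle and 1.59-fold lower under RGFP109. With it, R6/1 was 1.94-fold and 1.55-fold lower, log2 ratios of -0.95 and -0.63. The treatment log2 ratio in R6/1 was 0.28, and in wild type mice it was -0.05. With a mean of 0.788 FPKM, Gsto2 is under the minimum level and is in none of the counts above, and its ratios rest on low values. Gsto1 stood at 24.5 times the level of Gsto2 in WT-vehicle and at 66.9 times in R6/1-vehicle, and at 27.4 and 54.6 times under RGFP109. Both genes overlap Cfap43 of the minus strand in the GENCODE annotation, which had a mean of 0.6 FPKM with genotype log2 ratios of -0.15 with vehicle and 0.54 under RGFP109. Itprip, the next gene on the right, had a mean of 0.221 FPKM. The summed level of every marker list was likewise lower in R6/1-vehicle than in WT-vehicle, including those of microglia and endothelial cells with pericytes. With treatment in R6/1 mice, the neocortical, oligodendrocyte and olfactory bulb sums were higher, as was Gsto2, and those of the other lists were not. The part of these lists in the values of Gsto2 was not tested.

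Among the genes with at least 1 FPKM, the closest to Gsto2 by the same distance were 6530402F18Rik, D930048N14Rik and Adra1b, the last of which encodes the alpha-1B adrenergic receptor. Their root mean square differences were 0.024, 0.043 and 0.046 on the log2 scale. Adra1b had 3.56 FPKM in WT-vehicle and 1.84 in R6/1-vehicle, with 3.3 in WT-RGFP109 against 2.16 in R6/1-RGFP109. It shared with Gsto2 the low R6/1-vehicle level and the slightly higher level in treated R6/1 mice. That likeness follows from the choice by distance and is given as a description.

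The remaining genes of glutathione metabolism and redox defence were read from 80 listed genes, all of which were in the tables and 71 of which were counted. With vehicle, 2 of them were lower and 1 higher in R6/1, or 4.23%, beside 14.1% of all genes. Under RGFP109, 3 were lower and none higher, again 4.23%, beside 12.2%. With treatment in R6/1, 1 of 71 was lower, or 1.41%, beside 3.03% of all genes and 0.923% of the protein-coding genes past the fold. In wild type mice none of the 71 was past the fold, beside 3.81% of all genes and 1.49% of the protein-coding genes. The median log2 ratios of the 71 genes were -0.01 and 0.0031 in the genotype comparisons.

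Gsta3, an alpha class glutathione transferase gene, had 1.75 FPKM in WT-vehicle and 0.968 in R6/1-vehicle, with 1.5 in WT-RGFP109 against 0.904 in R6/1-RGFP109. Gstm6, of the mu class, had 8.66, 5.11, 8.56 and 5.21 FPKM in the same order. These were the only listed genes past the fold with the same sign in both genotype comparisons, with log2 ratios of -0.86 and -0.73 for Gsta3 and of -0.79 and -0.74 for Gstm6. Both were lower in R6/1, as was Gsto2 and unlike Gsto1. The third lower gene under RGFP109 was Hpgds, the hematopoietic prostaglandin D synthase of the sigma class, at -0.52, beside -0.34 with vehicle. The higher gene with vehicle was Aifm2, which encodes the ferroptosis suppressor FSP1, at 0.55 with vehicle and 0.20 under RGFP109. Gstm2 was the 1 gene past the fold with treatment, at -0.55 in R6/1 mice, from 1.34 FPKM in R6/1-vehicle to 0.902 in R6/1-RGFP109. Hpgds and Aifm2 were named after their values were seen, as were S100a5, Omp, Trim27, Zscan12 and Cdc20b above.

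None of 15 counted genes of glutathione synthesis, uptake and recycling was past the fold in any of the 4 comparisons, and neither was any of 17 peroxiredoxin, thioredoxin and glutaredoxin genes or any of 10 genes of selenoprotein synthesis and selenium supply. The summed level of the synthesis genes was 277 FPKM in WT-vehicle and 271 in R6/1-vehicle, and that of the peroxiredoxin list was 1162 and 1154 FPKM. Genotype differences past the fold were thus found in few of the listed genes, and none of their genotype ratios was as low as that of Gpx6.

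**Figure D5:**
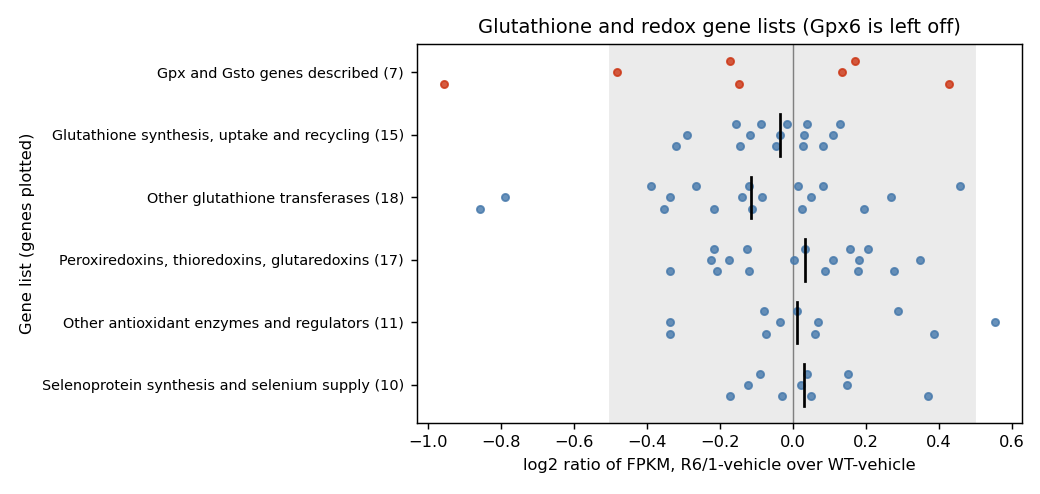
Log2 ratio of FPKM between R6/1-vehicle and WT-vehicle for the counted genes of 5 glutathione and redox lists (blue, black bar at the median) and for the described genes other than Gpx6 (red), with the range within 0.5 in grey. Most points lie in the band; Gsto2, Gsta3 and Gstm6 lie below it and Aifm2 above it, and Gpx6, at -4.45, would lie far off the left edge.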

How the data were processed

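RNA-seq libraries were made from 380 ng of total RNA of the striatum of 24 mice with a TruSeq RNA kit and sequenced as single reads of 51 bp. The authors mapped these reads with STAR 2.5.0b, using RefSeq transcripts on mm10, obtained FPKM from Cufflinks 2.2.1 and deposited 6 Cuffdiff tables, 1 for each pair of groups, with 1 pooled FPKM value per group and table. The fold change, test statistic, p-value and q-value columns of these tables hold the comparisons of the authors and were not used. Read counts were not used here and the depth per library is unknown, so no interval or detection limit is given. Whether reads were assigned by strand is not given in the sources used here.

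Rows were matched by symbol over the 24340 genes shared by the 6 tables. Groups came from the sample labels. Ratios were formed within a table as log2 of the values after adding 0.05 FPKM, which understates differences of low genes, and a gene was past the fold beyond 0.5. Counts took genes with a mean of at least 1 FPKM, and 95.6% of these matched a RefSeq symbol, which gave 12138 protein-coding genes. With 1 value per group no model was fitted and no p-value computed. The ratio script was tested on simulated data. Named genes were the 8 genes, listed genes past the fold in both genotype comparisons or in a treatment comparison, the 5 genes nearest to Gpx6 and 3 nearest to Gsto2 by root mean square difference, the neighbours of Gpx6 and of the Gsto pair, and 5 striatal markers. The genes, lists and rules were chosen with earlier results of these data known. Levels are per transcript length, and values of a group from different tables are scaled by a common factor. Gene coordinates and codons came from GENCODE M21, since the table rows of Gpx4 and Gpx8 give the merged interval of several genes, and promoters from RefSeq (GRCm38.p6), with all 8 genes matched. Python 3.11.15, numpy 2.4.6, pandas 2.3.3 and matplotlib 3.10.9 were used. The alternatives were other pseudocounts, fold limits and minimum levels, centring on the median, group means over the 3 tables and protein-coding genes alone.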

Additional observations from a re-analysis of the deposited data

How the results depend on the processing

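The 48 ratios of the 8 genes in the 6 comparisons were recomputed 144 times, with 1 FPKM added, with centring on the median of all genes and with group means over the 3 tables. The sign turned in 1, for Gpx7 between R6/1-RGFP109 and WT-RGFP109, from -0.02 to 0.02 with group means, and 139 kept their side of the fold. The 5 that fell inside it did so with 1 FPKM added, namely Gpx3 between R6/1-vehicle and WT-RGFP109 (-0.48) and Gsto2 in 4 comparisons, with values from -0.43 to -0.30. Of the 7 counted genes, the number past a ratio of 1.2 was 3 for genotype with vehicle (Gpx3, Gpx6, Gsto1), 2 for genotype under RGFP109, 2 for treatment in R6/1 (Gpx3, Gpx6), 1 for treatment in wild type mice (Gpx8), 3 for R6/1-RGFP109 against WT-vehicle and 4 for R6/1-vehicle against WT-RGFP109. All genes past that ratio numbered 4900, 4181, 874, 1313, 4824 and 4219 in the same order. These were 35.7, 30.5, 6.37, 9.57, 35.2 and 30.8% of the 13715 genes. Past the fold of 0.5 there were 1931, 1673, 416, 523, 1904 and 1694, or 14.1, 12.2, 3.03, 3.81, 13.9 and 12.4%. With no minimum FPKM, or with one of 0.1, Gsto2 joined Gpx6 past the fold. This gave 2 of the 8 genes in both genotype comparisons and in R6/1-RGFP109 against WT-vehicle. Without a minimum, all genes past the fold numbered 4033, 3555, 1483, 2076, 3999 and 3647. These were 16.6, 14.6, 6.09, 8.53, 16.4 and 15% of 24340 genes. At 0.1 they numbered 3051, 2761, 887, 1199, 3073 and 2783, or 18.1, 16.4, 5.27, 7.13, 18.3 and 16.5% of 16822. Without a pseudocount, 1 gene, Gpx6, was past the fold with treatment in R6/1, beside 2.17% of 13513 genes. Its values there, 0.189 and 0.13 FPKM, are under the minimum level. In R6/1-vehicle against WT-RGFP109 the count of 2 became 1 with 1 FPKM added, where 9.11% of all genes were past the fold. It also became 1 beyond a log2 ratio of 1. Beyond that limit all genes numbered 580, 506, 244, 296, 563 and 526, or 4.23, 3.69, 1.78, 2.16, 4.1 and 3.84%. Among protein-coding genes alone, an alternative chosen after seeing the data, treatment counts were 112 in R6/1 and 181 in wild type mice, or 0.923 and 1.49%. The counts of the 8 genes were as before.

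No paired analysis was possible because the tables hold 1 pooled value per group and no value per mouse. Leaving out single mice could not be run for the same reason. Errors over mice and depth are unknown here, so the precision of low levels such as Gpx6 in R6/1 and Gsto2 is unknown too, and no difference was set against the spread between mice.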
